A study of Homo sapiens with 10 samples.

Results

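SH-SY5Y cells homozygous for the N352S form of TDP-43 were compared with cells carrying wild-type TDP-43, in 2 libraries of each genotype, which are 4 of the 10 libraries of the series. SH-SY5Y is an established human neuroblastoma line of noradrenergic character that is used as a neuron-like model. Per the labels the mutant cells were made by genome editing, and the other 6 libraries (3 siControl and 3 siTDP-43) came from SH-SY5Y cells given a control or a TDP-43 siRNA pool at 50 nM for 96 h. Libraries are named by the numbers in their titles (wild type 79 and 80, N352S 81 and 82), called biological replicates by the submitters, and no separate clone or culture is named, so p-values measure only the spread between the libraries in the fit, those of the siRNA experiment included, and a difference between clones cannot be told apart from an effect of the mutation. A gene was a member if it averaged 1 TPM or more over the 4 genotype libraries, where TPM is its share of a library's transcripts corrected for gene length, and 17303 genes were. Of these, 152 lie on distal chromosome 1p, from the chromosome's start to the end of TARDBP, and the other 17151 (12702 protein-coding) are described here.

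TDP-43, encoded by TARDBP, is a mainly nuclear protein that binds UG-rich RNA, restrains the use of cryptic exons and premature polyadenylation sites, and tunes its own mRNA level. N352S is a missense change in its glycine-rich C-terminal domain, where most mutations linked to amyotrophic lateral sclerosis (ALS) lie. Neuroblastoma cells can hold a noradrenergic state, marked by HAND2 and GATA3, or a mesenchymal state, marked by vimentin and matrix genes. Cells under a load of unfolded protein or short of amino acids raise endoplasmic reticulum (ER) chaperones and the targets of the transcription factor ATF4.

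The libraries of a genotype correlated at 0.987 (wild type) and 0.982 (N352S) across tested genes on the log2(TPM + 1) scale, and libraries of different genotype at 0.967 to 0.974. Mitochondrially encoded transcripts took 9.71% to 11.06% of the TPM in the 4 libraries. The depth of the libraries is unknown, since TPM keep none. Markers of noradrenergic neuroblastoma summed to 6601 and 6664 TPM in wild-type and to 5876 and 6124 TPM in N352S libraries, and DBH, the noradrenaline-making enzyme, alone stood at 1471 to 1687 TPM, while TH, the first enzyme of the route, was at 0.36 to 1.17 TPM. Fibroblast markers summed to 160 to 191 TPM in the 4 libraries and Schwann cell precursor markers to 54.5 to 70.3 TPM, with SOX10 under 1 TPM and FOXD3 at 0. All 6 endothelial and all 6 leukocyte markers were under 1 TPM in each library, and of 6 epithelial markers CDH1, KRT5 and KRT14 were at or near 0. EPCAM (1.62 and 2.05 against 4.44 and 4.52 TPM) and ESRP1 (0.61 and 0.6 against 3.19 and 1.86 TPM) were higher in N352S, and the 6 epithelial markers summed to 5.69 and 6.42 TPM in wild-type and 9.67 and 10.45 TPM in N352S libraries; their part in the results was not tested. In bulk RNA a lower number of cells of a type and less RNA per cell cannot be told apart.

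TARDBP (ENSG00000120948, chromosome 1, 11012344 to 11026420, plus strand) stood at 196 and 205 TPM in wild-type and at 123 and 122 TPM in N352S libraries (log2 -0.70 ± 0.05, limma adjusted p = 1.9e-05). A TPM value does not show the N352S codon, so this level does not check the genotype itself. STMN2, which encodes the microtubule regulator stathmin-2, stood at 737 and 748 against 403 and 409.6 TPM (log2 -0.87 ± 0.09, limma adjusted p = 0.0002). Here and below, log2 values are differences of group means of log2(TPM + 1) with the SE of the fit, and p-values are limma's with Benjamini-Hochberg adjustment over all 17303 genes. On this scale the change of genes near 1 TPM is understated.

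Outside distal 1p, 1480 genes were higher in N352S libraries (8.63% of those tested) and 1928 were lower (11.2%) at an adjusted p under 0.05, which is 19.9% in either direction. With distal 1p included, 1481 (8.56%) were higher and 2042 (11.8%) lower. A change of at least 2-fold on the fitted scale was seen in 192 of the higher and 172 of the lower genes. The median log2 change outside distal 1p was -0.03. The numbers of higher and of lower genes both fell whichever genotype library was left out. Such a removal leaves 1 library of that genotype, which lowers the power of the fit. Dependence on a particular library therefore cannot be told apart from this loss of power. The same limit holds for list counts and for calls given below as lost without a genotype library. Without the siRNA libraries, which otherwise lend their spread to the fit, 994 were higher and 1003 lower. The shares of 8.63% and 11.2% are the background for every list below. For most lists the text gives how many tested members rose or fell and the median log2 change. The other lists are shown only in the figures. Where leaving out a genotype library moved a count by over 1.5 times and by more than 1 gene, the counts left after removal of wild type 79, wild type 80, N352S 81 and N352S 82, in that order, follow the words "left out in turn", and moves of this size with other libraries, scalings or filters are given after them. A stricter threshold lowers most list counts. For the stress lists below, the number that fell by at least 1.5-fold is given as well.

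**Figure D1:**
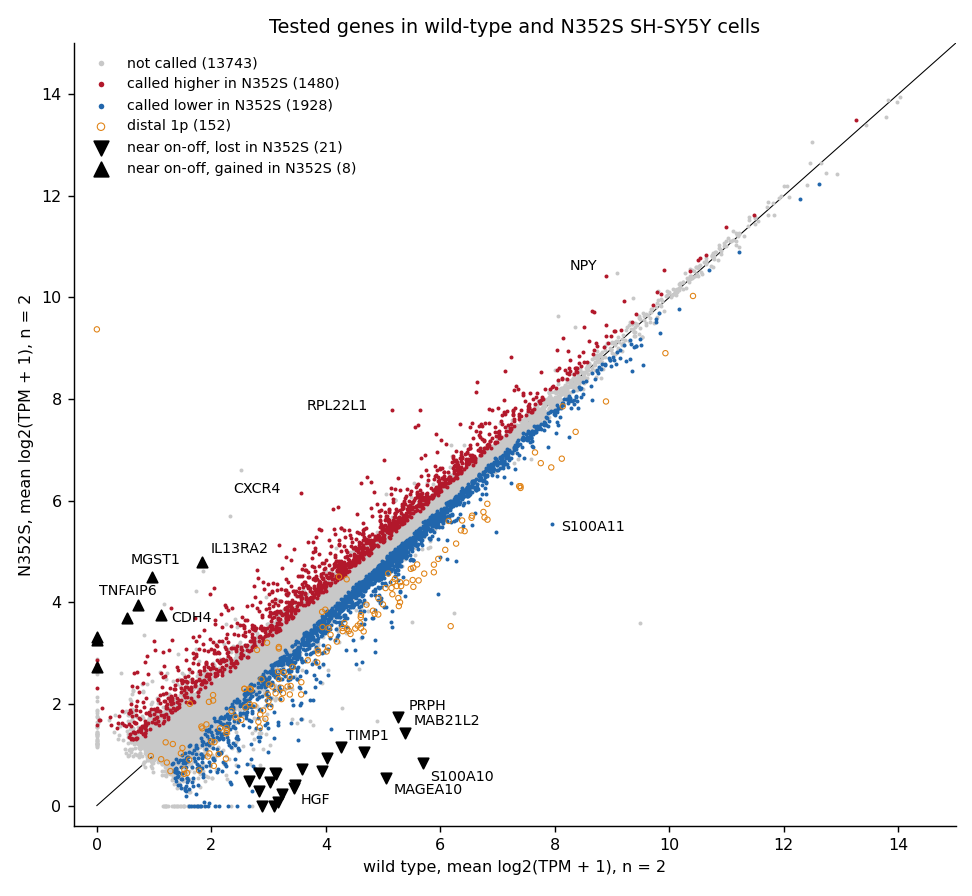
Mean log2(TPM + 1) of 17303 tested genes in wild-type (x axis, n = 2) and N352S (y axis, n = 2) libraries. Red and blue points are genes called higher and lower outside distal 1p, open orange points the 152 genes of distal 1p, and black triangles the 21 lost and 8 gained near on-off genes. The lost genes reach down to 0 on the y axis while standing between about 5 and 51 TPM in wild type.

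The lowering of distal 1p genes (92 of 102 protein-coding genes there fell) did not stop at the end of TARDBP, a stretch looked at after its values were seen. Of the 7 tested genes from there to the end of MTOR, 6 fell and 1 rose. SRM (ENSG00000116649, chromosome 1, 11054584 to 11060024, minus strand), which encodes spermidine synthase, stood at 127 and 122 TPM in wild-type and 37 and 44.8 TPM in N352S libraries (log2 -1.59 ± 0.10). EXOSC10, a catalytic subunit of the RNA exosome, stood at 69.8 and 67.1 against 39 and 33.9 TPM (log2 -0.89 ± 0.06). MTOR (ENSG00000198793, chromosome 1, 11106535 to 11262507, minus strand), the growth-regulating kinase, stood at 33.1 and 34.4 against 21.2 and 19 TPM (log2 -0.72 ± 0.08, limma adjusted p = 0.00046). The libraries of the 2 genotypes did not overlap for any of the 3, as in 33.7% of tested genes outside distal 1p with N352S lower. The gene that rose is an antisense transcript (ENSG00000230337, chromosome 1, 11099675 to 11102100, plus strand) that overlaps the start of EXOSC10, at 0.49 and 0.4 against 10.6 and 13.6 TPM. Strand use in the counting is not stated, so reads of EXOSC10 and this transcript may not be separated. Further along the chromosome, DISP3 and FBXO2 were not called and FBXO44 was higher (log2 0.27 ± 0.07, a call lost without wild type 79, N352S 81, N352S 82 or the siRNA libraries and with the replicate block). Counts taken from the end of MTOR onward were 1479 higher and 1922 lower.

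Genes close to an on-off pattern were defined by a ratio of group means of at least 10 with at least 5 TPM in both libraries of the higher genotype. The N352S and wild-type values chose them and are given as a description. Outside distal 1p, 21 such genes were lost in N352S (0.122% of tested genes; 14 protein-coding) and 8 were gained (0.0466%; 4 protein-coding). The numbers depend on the limits, at 12 and 6 for 20-fold and 34 and 24 for 5-fold. With 1 genotype library left out, 26 to 37 lost and 10 to 32 gained genes met the rule, the most without wild type 80 (37 lost) and N352S 82 (32 gained). With such a removal the rule rests on 1 library of that genotype, which loosens the 5 TPM limit where that genotype is the higher. Just inside the 10-fold line were GYG2 (11.1-fold) and SLITRK6 (12.9-fold) among lost genes and IL13RA2 (10.3-fold) and CDH4 (10.7-fold) among gained genes. Just outside it were SULF2 (8.76-fold), CCDC80 (7.07-fold) and BCL11A (6.38-fold), and on the gained side NTRK2 (8.24-fold), UNC5D (7.22-fold), CXCR4 (6.40-fold) and RPL22L1 (6.34-fold).

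Promoter windows are shown for the lost genes S100A10 and TIMP1, for the S100 gene S100A11, which fell with S100A10 but stayed expressed, and for the gained gene MGST1, so that the sequence of their start regions can be set beside the values below. Each runs from 250 bases before to 50 after a RefSeq start (build GRCh38.p14), read 5′ to 3′ on the gene's strand, with CG dinucleotides in capitals.
S100A10 (chr1:151993810-151994109, minus strand): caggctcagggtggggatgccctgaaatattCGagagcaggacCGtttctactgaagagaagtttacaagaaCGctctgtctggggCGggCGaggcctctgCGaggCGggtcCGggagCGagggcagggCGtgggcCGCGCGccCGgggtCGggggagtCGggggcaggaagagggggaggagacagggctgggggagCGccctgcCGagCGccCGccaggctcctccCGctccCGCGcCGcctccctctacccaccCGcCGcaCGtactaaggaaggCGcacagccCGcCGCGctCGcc
S100A11 (chr1:152036955-152037254, minus strand): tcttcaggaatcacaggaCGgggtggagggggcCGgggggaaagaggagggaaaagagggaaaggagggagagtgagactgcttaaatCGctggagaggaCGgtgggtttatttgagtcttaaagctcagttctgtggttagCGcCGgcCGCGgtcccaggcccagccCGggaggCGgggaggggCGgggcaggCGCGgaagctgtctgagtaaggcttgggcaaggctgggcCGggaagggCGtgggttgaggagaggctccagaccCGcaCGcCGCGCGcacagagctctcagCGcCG
TIMP1 (chrX:47582186-47582485, plus strand): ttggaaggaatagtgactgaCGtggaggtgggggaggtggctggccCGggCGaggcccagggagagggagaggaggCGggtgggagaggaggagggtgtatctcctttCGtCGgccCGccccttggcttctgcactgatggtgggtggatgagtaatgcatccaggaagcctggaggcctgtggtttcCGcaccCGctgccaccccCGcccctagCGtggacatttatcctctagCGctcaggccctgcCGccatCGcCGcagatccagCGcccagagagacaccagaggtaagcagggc
MGST1 (chr12:16347395-16347694, plus strand): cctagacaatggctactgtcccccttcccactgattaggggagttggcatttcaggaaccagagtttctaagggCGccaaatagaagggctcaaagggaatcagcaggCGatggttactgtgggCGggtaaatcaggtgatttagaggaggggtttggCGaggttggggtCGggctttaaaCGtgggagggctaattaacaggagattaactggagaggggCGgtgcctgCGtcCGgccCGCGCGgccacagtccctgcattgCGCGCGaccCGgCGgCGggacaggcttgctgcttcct
The windows held 32 CG in S100A10, 22 in S100A11, 16 in TIMP1 and 18 in MGST1, against a median of 14 over 27305 windows of the same length. The table held a window for 12 of the 18 protein-coding near on-off genes (9 lost, 3 gained). Among the lost genes the CG number ran from 2 (BCHE) to 37 (GYG2) with a median of 13, and 83.1% of all windows had as few as or fewer than S100A10. The AP-1 motif TGANTCA, searched on both strands as the only motif beside CG, was in the windows of BCHE and SLITRK6 among the lost and TNFAIP6 among the gained genes, and in 7.76% of all windows.

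Several lost genes encode surface, secreted and cytoskeletal proteins. S100A10 (ENSG00000197747, chromosome 1, 151982915 to 151994390, minus strand), the partner of annexin A2 at the plasma membrane, stood at 47.4 and 54 TPM in wild-type and 0.81 and 0.75 TPM in N352S libraries. The siControl libraries held 87.1, 86.9 and 100.5 TPM. Its neighbour in the same cluster of chromosome 1q, S100A11 (ENSG00000163191, chromosome 1, 152032506 to 152047907, minus strand), stood at 253 and 239 against 44.9 and 46.6 TPM, which is 5.38-fold and below the on-off limit. Annexin A2 (ANXA2) itself was not called, at 239.6 and 255 against 254 and 247 TPM (log2 0.02 ± 0.06, limma adjusted p = 0.86). Its 4 values overlapped between genotypes.

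MAGEA10 (ENSG00000124260, chromosome X, 152133310 to 152138578, minus strand), a cancer-testis antigen on the X chromosome, stood at 34.6 and 30.1 TPM in wild-type and 0.18 and 0.8 TPM in N352S libraries, with 26.6, 30.3 and 29.1 TPM in siControl. The overlapping transcript RP11-1007I13.4 on the same strand was at 7.19 and 7.85 TPM in wild type and is listed at 0 in both N352S libraries. Of 10 tested cancer-testis antigens, none rose and 2 fell (median log2 -0.09, and 3 rose with no filter). MAGEA6 fell by less, at 55.5 and 52.9 against 43.8 and 42.5 TPM (log2 -0.32 ± 0.07, a call lost without wild type 79 or N352S 82).

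Other lost genes encode secreted factors. HGF (ENSG00000019991, chromosome 7, 81699008 to 81770438, minus strand), the hepatocyte growth factor that binds the receptor MET, stood at 9.96 and 9.79 TPM in wild-type, 0.37 and 0.19 TPM in N352S and 27.5, 27.9 and 29.1 TPM in siControl libraries. TIMP1 (ENSG00000102265, chromosome X, 47582313 to 47586789, plus strand), an inhibitor of matrix metalloproteases, stood at 24.8 and 23.9 against 0.93 and 1.22 TPM, with 51.6, 43 and 47.7 TPM in siControl. NELL1, a secreted protein with growth factor-like domains, stood at 16.3 and 14.2 against 0.81 and 1.02 TPM. NELL1 differed from the former genes in that siControl libraries were lower than wild type, at 3.36, 3.21 and 3.24 TPM. BCHE (ENSG00000114200, chromosome 3, 165772904 to 165837472, minus strand), butyrylcholinesterase, stood at 13.4 and 15.2 against 0.81 and 0.4 TPM, with 24.3, 21.4 and 28 TPM in siControl.

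Among membrane and structural genes, TNFRSF1A (ENSG00000067182, chromosome 12, 6328757 to 6342114, minus strand), the main receptor of tumour necrosis factor, stood at 21.1 and 15.5 TPM in wild-type and 2.22 and 0.52 TPM in N352S libraries. PRPH (ENSG00000135406, chromosome 12, 49293252 to 49298686, plus strand), the neuronal intermediate filament peripherin, stood at 37.2 and 37.6 against 2.38 and 2.33 TPM. SLITRK6, a synaptic leucine-rich repeat protein, stood at 5.38 and 5.22 against 0.52 and 0.3 TPM. The on-off rule selected for the gap between the genotypes in these 3 genes. The N352S libraries themselves were furthest apart for TNFRSF1A. MAB21L2, a developmental regulator, stood at 42.5 and 39.1 against 1.51 and 1.85 TPM and reached 109, 106 and 115 TPM in siControl. HEBP2, a heme-binding protein, stood at 10.4 and 11.5 against 0.29 and 1.12 TPM, and GYG2, which primes glycogen synthesis, at 6.4 and 5.86 against 0.56 and 0.55 TPM. The other lost genes were noncoding or overlapped other genes, among them SATB1-AS1 (5.93 and 6.28 against 0.24 and 0.19 TPM) and MIR4435-2HG (7.97 and 7.46 against 0.42 and 0.68 TPM). AP003419.11 and RP11-140L24.4 overlap other genes, and their TPM are uncertain.

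The 4 protein-coding genes gained in N352S act in detoxification, matrix binding, adhesion and cytokine binding. MGST1 (ENSG00000008394, chromosome 12, 16347142 to 16609259, plus strand), a membrane-bound glutathione transferase, stood at 0.7 and 1.21 TPM in wild-type and 22.8 and 20.5 TPM in N352S libraries. TNFAIP6 (ENSG00000123610, chromosome 2, 151357592 to 151380048, plus strand), a secreted hyaluronan-binding protein, stood at 0.72 and 0.59 against 15 and 13.6 TPM. CDH4 (ENSG00000179242, chromosome 20, 61252426 to 61940617, plus strand), the adhesion protein R-cadherin, stood at 1.24 and 1.11 against 12.2 and 12.8 TPM. IL13RA2 (ENSG00000123496, chromosome X, 115003975 to 115019977, minus strand), the decoy receptor of interleukin 13, stood at 2.07 and 3.12 against 26.9 and 26.4 TPM. The siControl libraries were at or below 0.88 TPM for all 4 genes. The other gained transcripts were the antisense transcript at EXOSC10 and 3 short RNAs (Y_RNA, SNORD36C and MIR103B2) listed at 0 in both wild-type libraries. Of the short RNAs, MIR103B2 was also at 4.57 TPM in 1 siControl library and at 0 in the other 2, so a level near that of N352S also occurred within a group whose other libraries were at 0.

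The siRNA experiment gave further SH-SY5Y libraries, for which the labels name no edit and whose values the on-off rule did not use. The siControl mean lay closer to wild type than to N352S on the log2(TPM + 1) scale for 18 of the 21 lost genes (12 of 14 protein-coding) and for 7 of the 8 gained genes, and it reached at least 5 TPM for 16 lost and no gained gene. The share over all tested genes was not taken. The rule chose these genes for a large gap between N352S and wild type, so the counts are a description only. Of the 21 lost genes 6 fell and 4 rose with siTDP-43 (background 19.5% lower and 5.88% higher), and of the 8 gained genes 1 rose and none fell. S100A10 fell with knockdown (log2 -0.73, limma adjusted p = 0.00024), from 87.1, 86.9 and 100.5 to 56.1, 51.2 and 56.5 TPM, which still exceeded its N352S level. PRPH and GYG2 were also among the 6 that fell, by log2 -0.45 and -0.66. MAB21L2, HGF, SLITRK6 and NELL1 were higher with knockdown, by log2 0.34, 0.65, 0.85 and 1.13. These 4 genes thus had opposite directions in the N352S and the knockdown libraries, and the 6 that fell had the same direction. The gained gene that rose with knockdown was IL13RA2 (log2 1.15).

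**Figure D2:**
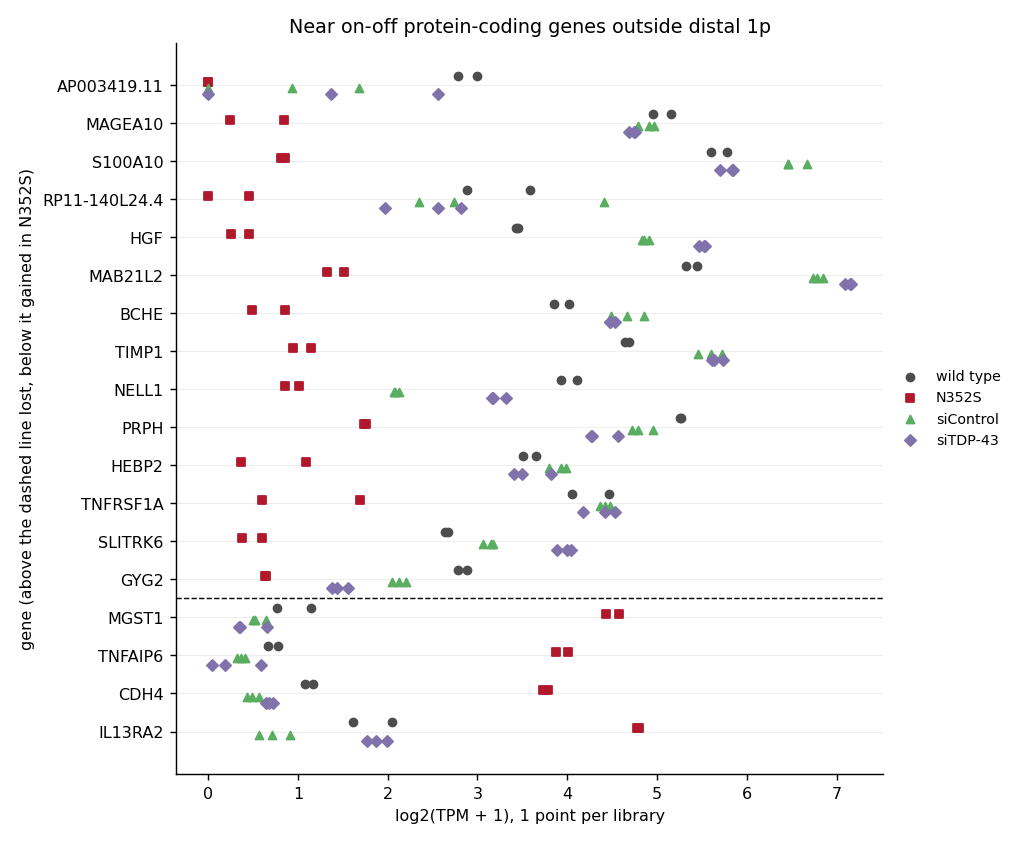
log2(TPM + 1) of the 18 protein-coding near on-off genes in each of the 10 libraries (1 point per library, colour and shape by group). In genes above the dashed line the N352S squares lie left of all wild-type circles, a gap that the on-off rule selected for. For most of these genes the siControl and siTDP-43 points sit with wild type. Below the line MGST1, TNFAIP6, CDH4 and IL13RA2 are high only in N352S.

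Genes of the unfolded protein response and of amino acid supply were lower in N352S libraries. Of 23 tested ER chaperones and folding enzymes, 3 rose and 16 fell (median log2 -0.37; left out in turn, 2, 1, 1 and 1 rose), 1 of the latter by at least 1.5-fold. HSPA5, the ER chaperone BiP that senses unfolded protein, stood at 308 and 299 TPM in wild-type and 151 and 152 TPM in N352S libraries (log2 -0.997 ± 0.04, limma adjusted p = 6.4e-07). HSP90B1, the ER form of HSP90, stood at 639 and 635 against 431 and 453 TPM (log2 -0.53 ± 0.05), HYOU1 at 169 and 159 against 120.1 and 118 TPM and the disulfide isomerase PDIA3 at 363 and 342 against 254 and 272 TPM. The lectin chaperone CALR (log2 -0.37 ± 0.05) and the isomerase PDIA4 (log2 -0.32 ± 0.04) fell as well, and so did SDF2L1 (log2 -0.46 ± 0.10, a call lost without wild type 79, wild type 80 or N352S 81). Of 21 sensors and ER degradation genes, 2 rose and 7 fell (median log2 -0.10; left out in turn, 1, 3, 5 and 4 fell, and 4 fell without the siRNA libraries or with no filter). XBP1, the transcription factor activated by IRE1, stood at 151 and 146 against 111 and 116 TPM (log2 -0.39 ± 0.06) and HERPUD1, a degradation factor, at 141 and 133 against 90.5 and 84.6 TPM (log2 -0.64 ± 0.14, a call lost without wild type 79 or N352S 82). EIF2AK3, the sensor kinase PERK, rose from 13.5 and 13.7 to 19.7 and 18.9 TPM (log2 0.47 ± 0.08).

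Of 17 tested regulators and effectors of the ATF4 program, 1 rose and 13 fell (median log2 -0.37), 5 of the latter by at least 1.5-fold. ATF4 itself stood at 427 and 429.7 against 358 and 368 TPM (log2 -0.24 ± 0.03, limma adjusted p = 0.0013). CHAC1, which degrades glutathione, stood at 90.6 and 94.2 against 44.6 and 45.6 TPM (log2 -1.02 ± 0.10), and the transcription factor ATF5 at 32.3 and 30.2 against 13.2 and 14.8 TPM (log2 -1.11 ± 0.09). DDIT4, an inhibitor of mTORC1, stood at 156 and 156 against 98.6 and 96.1 TPM (log2 -0.68 ± 0.04) and SESN2, which restrains the same complex when leucine is short, at 29.2 and 26.9 against 17.1 and 16.5 TPM (log2 -0.71 ± 0.08). For these genes the libraries of a genotype lay close together and the genotypes did not overlap. Such a lack of overlap, with N352S lower, was seen in 33.7% of all tested genes outside distal 1p. TRIB3 fell by less (log2 -0.37 ± 0.06), and DDIT3, which encodes CHOP, fell by little (log2 -0.22 ± 0.06, limma adjusted p = 0.028), a call lost without wild type 79, wild type 80, N352S 81 or the siRNA libraries and with median-of-ratios scaling. The gene that rose was GDF15, a secreted stress factor, from 3.82 and 3.85 to 9.24 and 9.63 TPM (log2 1.11 ± 0.15).

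Enzymes and transporters under ATF4 were lower too. Of 20 genes of serine, asparagine, proline and one-carbon synthesis, 2 rose and 10 fell (median log2 -0.24; left out in turn, 4, 5, 6 and 5 fell), 1 of the latter by at least 1.5-fold. MTHFD2, the mitochondrial folate enzyme, stood at 333 and 340.4 against 225 and 228 TPM (log2 -0.57 ± 0.04), asparagine synthetase ASNS at 548 and 527 against 401 and 419.7 TPM (log2 -0.39 ± 0.04) and PHGDH, the first enzyme of serine synthesis, at 366 and 357 against 267 and 281 TPM (log2 -0.40 ± 0.05). PSAT1 (log2 -0.22 ± 0.08, limma adjusted p = 0.086) and SHMT2 (log2 0.21 ± 0.09, limma adjusted p = 0.13) of the same routes were not called. ASS1, which makes argininosuccinate for arginine synthesis, went the other way, from 17.5 and 16.2 to 36.8 and 42.5 TPM (log2 1.18 ± 0.19). Of 13 amino acid transporters, none rose and 9 fell (median log2 -0.37), 3 of the latter by at least 1.5-fold. The leucine transporter SLC7A5 stood at 156 and 141 against 80.0 and 81.2 TPM (log2 -0.88 ± 0.06) and its partner SLC3A2 at 172 and 171 against 134 and 130.1 TPM (log2 -0.37 ± 0.06). The cystine transporter SLC7A11 stood at 9.74 and 11.3 against 4.1 and 4 TPM (log2 -1.19 ± 0.13). Of 20 cytosolic aminoacyl-tRNA synthetases, which charge tRNAs, none rose and 11 fell (median log2 -0.21), none of them by at least 1.5-fold, among them GARS (log2 -0.34 ± 0.04), NARS (log2 -0.45 ± 0.06) and WARS (log2 -0.58 ± 0.08).

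Most heat shock chaperones outside the ER fell too. Of 18 tested, 2 rose and 10 fell (median log2 -0.28; left out in turn, 1, 0, 2 and 0 rose, and none rose without the siRNA libraries), 1 of the latter by at least 1.5-fold. HSPA8, the constitutive cytosolic HSP70, stood at 919.6 and 904 against 635 and 617 TPM (log2 -0.54 ± 0.04) and the mitochondrial HSPA9 at 325 and 298 against 219.6 and 229 TPM (log2 -0.47 ± 0.05). The inducible, near-identical HSPA1A and HSPA1B, whose reads are hard to assign, stood at 36.3 and 38.5 against 20.6 and 20.8 TPM (log2 -0.82 ± 0.07) and at 34.5 and 31.7 against 22 and 23.1 TPM (log2 -0.53 ± 0.05). Of 31 proteasome subunits, 1 rose and 3 fell (median log2 -0.02; left out in turn, 2, 0, 3 and 1 fell, and 5 fell without siControl 3, 1 fell with median-of-ratios scaling, none fell without the siRNA libraries).

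Levels of these genes in the siRNA experiment stood further from wild type than the N352S levels for most of the ATF4 program. ASNS averaged 538 TPM in wild type, 410.2 TPM in N352S and 82.8 TPM in siControl, and CHAC1 averaged 92.4, 45.1 and 4.17 TPM in the same order. For 12 of the 13 ATF4 program genes that fell, the N352S mean lay between the wild-type and the siControl mean. Heat shock chaperones differed from this: HSPA8 was highest in siControl (1305, 1290.0 and 1282 TPM), and for none of the 10 that fell did N352S lie between wild type and siControl. The fall from wild type to N352S chose the genes of both counts, so the counts are a description only. Of the 16 ER chaperones and folding enzymes that fell, N352S lay between wild type and siControl in 8. The share over all lower genes was not taken. Experiment and culture cannot be told apart between the genotype and siRNA libraries, so no test was made between them.

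**Figure D3:**
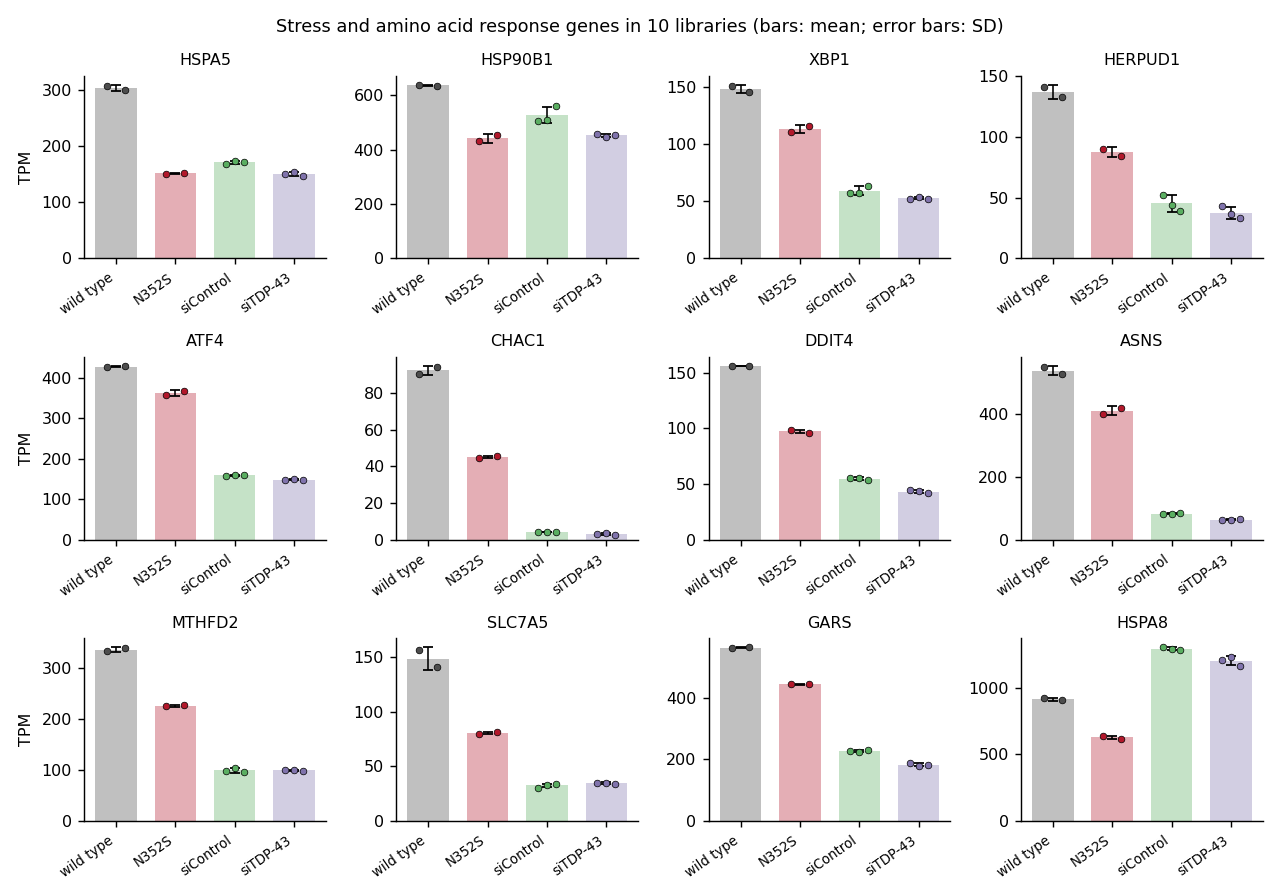
TPM of 12 stress and amino acid response genes. Points are single libraries, bars are means and error bars are SDs of 2 wild-type, 2 N352S, 3 siControl and 3 siTDP-43 libraries. N352S bars are lower than wild-type bars in every panel, and siControl bars are lower still except for HSPA5, HSP90B1 and HSPA8.

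Neuronal identity genes moved in both directions. Of 20 noradrenergic transcription factors, 4 rose and 6 fell (median log2 0.02, and 7 rose with quantile normalization). HAND2 (636 and 665 against 704 and 714 TPM) and GATA3 (169.5 and 159 against 170.4 and 169 TPM) were not called (limma adjusted p = 0.27 and adjusted p = 0.56). INSM2, a zinc finger factor of neuroendocrine cells, stood at 75.2 and 77.5 against 25.2 and 28.8 TPM (log2 -1.47 ± 0.07) and HAND1 at 101 and 103 against 63.2 and 65.8 TPM (log2 -0.66 ± 0.05). TBX2 rose from 24.3 and 24.7 to 41.5 and 43.9 TPM (log2 0.78 ± 0.07). Of 14 catecholamine genes, 2 rose and 5 fell (median log2 -0.12; left out in turn, 3, 4, 4 and 3 fell, and 3 fell without the siRNA libraries). DDC, which makes dopamine, stood at 254 and 262 against 157 and 163 TPM (log2 -0.69 ± 0.05), while SLC6A2, the noradrenaline transporter, rose from 162 and 154 to 315 and 294 TPM (log2 0.94 ± 0.08). SLC18A1, the vesicular monoamine transporter, rose by little (log2 0.26 ± 0.05, a call lost without the siRNA libraries), and the monoamine oxidase MAOA fell (log2 -0.69 ± 0.11).

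Cargo of dense-core granules showed large shifts in abundance. Of 17 granule proteins and prohormone enzymes, 8 rose and 4 fell (median log2 0.23). The neuropeptide NPY (ENSG00000122585, chromosome 7, 24284163 to 24291865, plus strand) stood at 469.8 and 476 TPM in wild-type and 1389.8 and 1363 TPM in N352S libraries (log2 1.54 ± 0.04, limma adjusted p = 1.3e-07), the largest rise in TPM among protein-coding genes called outside distal 1p. With knockdown NPY fell from 209, 207 and 197 to 129.8, 136 and 136 TPM, and the effects differed (limma adjusted p = 1.4e-07). The growth factor-regulated granule protein VGF rose from 424 and 396 to 773 and 907 TPM (log2 1.03 ± 0.11), secretogranin SCG2 from 90.8 and 90.8 to 179 and 169 TPM (log2 0.93 ± 0.06) and galanin (GAL) from 68.8 and 66.9 to 127 and 149 TPM (log2 1.01 ± 0.08). The chromogranins went the other way, CHGA from 1162 and 1139 to 804 and 946 TPM (log2 -0.40 ± 0.07) and CHGB from 392 and 398 to 295 and 312 TPM (log2 -0.38 ± 0.05). Among 31 vesicle release genes, 5 rose and 5 fell (median log2 -0.01; left out in turn, 4, 3, 3 and 5 rose). SYT4, a synaptotagmin of dense-core and postsynaptic vesicles, rose from 102 and 94.7 to 328 and 318 TPM (log2 1.71 ± 0.06), SYN2 from 9.52 and 8.68 to 16.6 and 17.7 TPM and SV2C from 11.3 and 10.8 to 23.4 and 20.3 TPM, whereas SYT5 fell from 44.5 and 45.8 to 28.1 and 27.2 TPM (log2 -0.69 ± 0.05). SNAP25 of the fusion machinery was not called (76.3 and 82.4 against 76.8 and 79.9 TPM).

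Of 15 cholinergic genes, 3 rose and 4 fell (median log2 -0.12; left out in turn, 3, 1, 1 and 2 rose, and 1 rose without the siRNA libraries, 2 fell with a filter of 5 TPM). CHRM2, a muscarinic receptor, stood at 5.57 and 4.78 against 0.64 and 0.9 TPM (log2 -1.80 ± 0.18) and the nicotinic subunit CHRNB2 at 49.6 and 49.8 against 34.6 and 35.1 TPM (log2 -0.50 ± 0.05). COLQ, the collagen tail that anchors acetylcholinesterase, rose from 3.1 and 2.75 to 9.05 and 8.48 TPM (log2 1.32 ± 0.18). The enzyme itself, ACHE, was higher by less (log2 0.42 ± 0.10), a call lost without wild type 80, N352S 81, N352S 82 or the siRNA libraries, in contrast to BCHE.

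Most intermediate filaments fell. Of 12 tested, 2 rose and 8 fell (median log2 -0.36). Beside PRPH, the neuronal filament INA stood at 109.8 and 110.5 against 81.3 and 78.5 TPM (log2 -0.46 ± 0.04) and KRT10 at 28.4 and 31.9 against 15.2 and 15.4 TPM (log2 -0.93 ± 0.07), and NEFL, the light neurofilament, at 111 and 113 against 88.3 and 89.1 TPM (log2 -0.34 ± 0.07, a call lost without wild type 79, wild type 80, N352S 81 or N352S 82). VIM, vimentin, rose from 361 and 362 to 668 and 707 TPM (log2 0.92 ± 0.04). Among 30 microtubule and growth cone genes, 8 rose and 9 fell (median log2 -0.04; left out in turn, 5, 4, 4 and 6 rose and 3, 6, 5 and 5 fell, and 4 rose without siControl 2 or with no filter, 5 rose without siTDP-43 2, 3 fell without the siRNA libraries). DCX, doublecortin of migrating neurons, stood at 61.1 and 61.6 against 37.5 and 36.5 TPM (log2 -0.71 ± 0.05), whereas DPYSL3 rose from 389 and 381 to 585 and 544 TPM (log2 0.55 ± 0.04) and GAP43 from 126 and 131 to 154 and 154 TPM (log2 0.26 ± 0.04). STMN2 and DCX therefore fell in the same libraries in which the growth cone genes GAP43, DPYSL3 and BASP1 (log2 0.40 ± 0.06) rose.

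Adhesion and axon guidance genes changed in both directions and by large factors. Of 27 semaphorins, plexins and neuropilins, 7 rose and 6 fell (median log2 0.00). The secreted SEMA3C rose from 32.3 and 30.4 to 116 and 105 TPM (log2 1.78 ± 0.09), the transmembrane SEMA5B from 24.8 and 25.9 to 86.8 and 87.7 TPM (log2 1.75 ± 0.09) and the receptor PLXNA4 from 6.94 and 6.1 to 21.8 and 18.6 TPM (log2 1.49 ± 0.10). SEMA3A, a repellent of growing axons, fell from 12.8 and 12.7 to 3.22 and 3.22 TPM (log2 -1.71 ± 0.11). Of 30 ephrins, slits, netrins and receptors, 8 rose and 4 fell (median log2 -0.14; left out in turn, 3, 7, 5 and 7 rose and 2, 2, 4 and 4 fell, and 5 rose without the siRNA libraries or with a filter of 5 TPM). The slit receptor ROBO2 fell from 24.1 and 25.2 to 11.9 and 11.5 TPM (log2 -1.01 ± 0.06) while the ligand SLIT3 rose from 102 and 101 to 183 and 172 TPM (log2 0.80 ± 0.10). The netrin receptor UNC5D (1.05 and 0.99 to 8.16 and 6.57 TPM) and the netrin relative NTNG2 (1.45 and 1.34 to 8.01 and 6.74 TPM) rose from about 1 TPM.

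Of 7 cadherins, 3 rose and none fell (median log2 0.05). CDH11 rose from 13.2 and 12.9 to 31.7 and 33.4 TPM (log2 1.26 ± 0.11) beside CDH4, and the abundant N-cadherin CDH2 was not called (87.7 and 89.6 against 82.2 and 81.6 TPM, limma adjusted p = 0.076). Of 33 clustered protocadherins, which share exons and whose TPM are therefore uncertain, 3 rose and 2 fell (median log2 -0.06; left out in turn, 0, 0, 1 and 0 fell). PCDHB2 rose from 4.13 and 2.03 to 17.6 and 16.3 TPM (log2 2.19 ± 0.22). Of 30 synaptic adhesion molecules, 4 rose and 9 fell (median log2 0.01; left out in turn, 2, 3, 3 and 2 rose, and 5 fell with a filter of 5 TPM). NRCAM rose from 151 and 159 to 304 and 272 TPM (log2 0.89 ± 0.07), whereas its relative NFASC fell from 14.7 and 12.9 to 5.29 and 5.96 TPM (log2 -1.16 ± 0.11) and CLSTN2, a calsyntenin, from 11.2 and 10.2 to 3.27 and 2.6 TPM (log2 -1.58 ± 0.12).

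Ion channels were also divided. Of 37 potassium channels, 6 rose and 8 fell (median log2 0.07; left out in turn, 4, 4, 7 and 5 fell, and 3 fell without the siRNA libraries), and of 21 sodium and calcium channel genes, 5 rose and 4 fell (median log2 -0.03; left out in turn, 3, 2, 4 and 3 fell). KCNH2, the hERG channel, rose from 138 and 135 to 249.8 and 253 TPM (log2 0.87 ± 0.04) and CACNG4 from 274 and 263 to 389 and 388 TPM (log2 0.53 ± 0.04). The calcium-activated channel KCNMA1 fell from 3.88 and 3.11 to 0.95 and 1.22 TPM (log2 -1.11 ± 0.17).

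Genes of the mesenchymal state did not move as a block. Of 23 tested, 8 rose and 7 fell (median log2 -0.01, and 4 fell with a filter of 5 TPM). VIM and LGALS1, galectin-1 (942 and 985 to 1511 and 1481 TPM, log2 0.63 ± 0.06), rose in the libraries in which S100A10, S100A11 and TIMP1 fell. CD44, a hyaluronan receptor, fell from 2.8 and 3.46 to 0.93 and 0.81 TPM (log2 -1.14 ± 0.24, a call lost without wild type 80 or N352S 82). Of 43 matrix proteins, proteases and inhibitors, 16 rose and 11 fell (median log2 0.03; left out in turn, 6, 7, 8 and 6 fell, and 7 fell without the siRNA libraries), both above the background. ADAMTS9, a metalloprotease, rose from 46.7 and 45 to 179.8 and 170.0 TPM (log2 1.91 ± 0.06), the basement membrane linker NID1 from 22.2 and 22.7 to 54.7 and 50.0 TPM (log2 1.19 ± 0.06) and SERPINA5, a serine protease inhibitor, from 3.36 and 2.95 to 17.3 and 19.4 TPM (log2 2.22 ± 0.14). TIMP2, a relative of TIMP1, rose from 259 and 261 to 382 and 374 TPM (log2 0.54 ± 0.03). Of 16 collagens, 2 rose and 2 fell (median log2 -0.03): the basement membrane chains COL4A1 (15.7 and 15.7 to 35.4 and 36.9 TPM) and COL4A2 (28.2 and 29.4 to 58.9 and 61.1 TPM) rose, and the fibrillar COL3A1 fell from 11.9 and 14.6 to 4.8 and 4.44 TPM (log2 -1.34 ± 0.09). COL3A1 is also a fibroblast marker. Of the 7 tested fibroblast markers 2 fell (COL3A1 and DCN) and 1 rose (PDGFRA), and the part of such cells in these results was not tested. DCN differed between the wild-type libraries themselves, at 3.49 TPM in wild type 79 and 10.5 TPM in wild type 80, against 2.35 and 1.44 TPM in N352S.

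Among receptors for growth factors and cytokines more genes rose than fell. Of 28 receptor tyrosine kinases and ligands, 11 rose and 3 fell (median log2 0.34). RET, the receptor of GDNF family ligands, rose from 429 and 417 to 554 and 547 TPM (log2 0.38 ± 0.04), ALK from 48.5 and 50.4 to 68.7 and 66.6 TPM (log2 0.44 ± 0.06) and EGFR from 7.6 and 7.68 to 17.1 and 14.6 TPM (log2 0.96 ± 0.08). NTRK2, the BDNF receptor TrkB, rose from 0.56 and 0.69 to 5.26 and 5.04 TPM (log2 1.92 ± 0.13). The ligands HGF and IGF2 (622 and 592 to 425 and 429.8 TPM, log2 -0.50 ± 0.09) fell. Of 27 cytokine, chemokine and TNF pathway genes, 11 rose and 4 fell (median log2 0.26; left out in turn, 6, 7, 7 and 8 rose and 2, 4, 3 and 3 fell, and 7 rose with no filter, 1 fell without the siRNA libraries). CXCR4 (ENSG00000121966, chromosome 2, 136114349 to 136118165, minus strand), the chemokine receptor of neural crest migration, rose from 10.8 and 10.9 to 73.8 and 65.5 TPM (log2 2.57 ± 0.12, limma adjusted p = 1.8e-06), with 11.9, 12.1 and 10.3 TPM in siControl. IL17RD, an inhibitor of FGF signalling, rose from 75.1 and 77.5 to 130.0 and 119 TPM (log2 0.70 ± 0.05).

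Several antigen presentation genes rose. Of 25 genes of the interferon response and antigen presentation, 10 rose and 2 fell (median log2 0.31; left out in turn, 6, 6, 5 and 7 rose, and 5 rose without the siRNA libraries). The class I chain HLA-C (26.1 and 27.5 to 56.4 and 57.3 TPM, log2 1.06 ± 0.08) rose with its light chain B2M (197 and 236 to 385 and 357 TPM, log2 0.78 ± 0.12) and the immunoproteasome subunit PSMB8 (1.85 and 2.23 to 5.23 and 5.68 TPM, log2 1.09 ± 0.14). Class I genes share sequence, so the split of reads between them is uncertain. Interferon-induced IFITM3 was not called (1.01 and 3.1 against 2.32 and 1.05 TPM). Leukocyte markers were under 1 TPM in all 4 libraries.

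**Figure D4:**
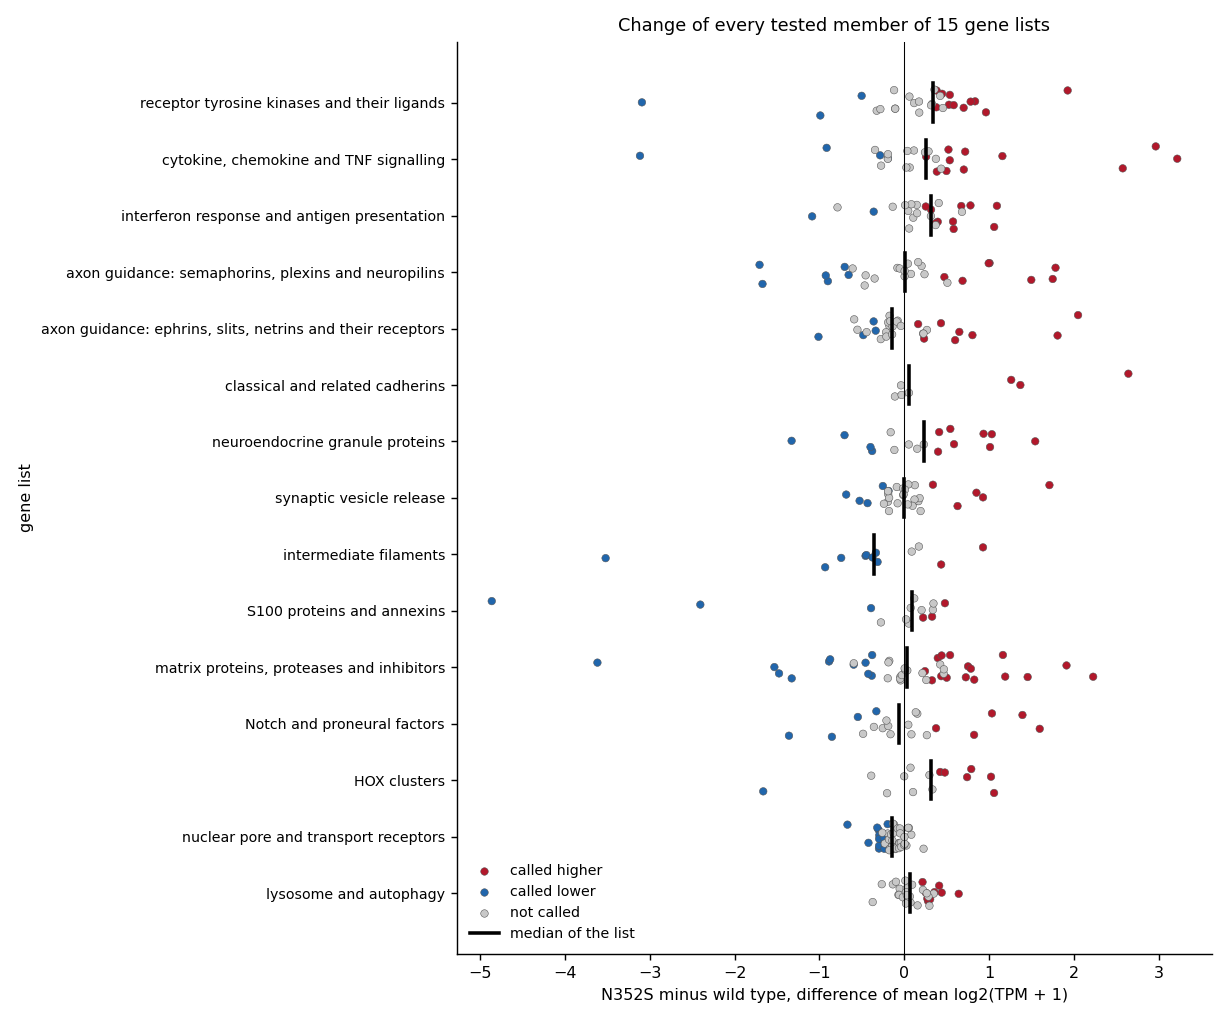
Difference of mean log2(TPM + 1), N352S minus wild type, of each tested member of 15 gene lists (points, coloured by call) with the median of the list (black bar). Receptor tyrosine kinases and antigen presentation genes lie mostly right of 0, intermediate filaments mostly left, and guidance, matrix and S100 genes spread to both sides.

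In the cell cycle, of 32 mitosis genes 7 rose and none fell (median log2 0.13, and 12 rose with median-of-ratios scaling). Of 36 DNA replication genes, 1 rose and 5 fell (median log2 -0.11; left out in turn, 1, 3, 3 and 4 fell, and 3 rose without siControl 3, with median-of-ratios scaling or with quantile normalization, 3 fell without siControl 2, siTDP-43 1 or siTDP-43 3, with median-of-ratios scaling or with no filter, 1 fell without the siRNA libraries). CENPA, the centromeric histone, rose from 39.1 and 40.9 to 61.5 and 64 TPM (log2 0.64 ± 0.08), PTTG1, securin, from 178 and 177 to 255 and 243 TPM (log2 0.48 ± 0.05) and TOP2A from 126 and 130.3 to 169 and 156 TPM (log2 0.34 ± 0.06). The proliferation marker MKI67 was not called (76.9 and 71.7 against 76.2 and 74.8 TPM), nor was CCNB1 (174 and 184 against 191 and 168 TPM). CDKN2A, which encodes the CDK4 inhibitor p16, rose from 13.3 and 14.8 to 40.0 and 43.9 TPM (log2 1.51 ± 0.18), with 2.04, 2.73 and 3.6 TPM in siControl. Which transcript of CDKN2A rose is not shown by gene-level TPM. MYC fell from 58.3 and 56.1 to 38.4 and 38.8 TPM (log2 -0.56 ± 0.06). CCND1 rose (log2 0.30 ± 0.06, a call lost without N352S 81). Of 25 p53 targets, 9 rose and 2 fell (median log2 0.28; left out in turn, 4, 4, 5 and 3 rose). DDB2, a repair factor, rose from 43.3 and 42.8 to 59.4 and 65.8 TPM (log2 0.53 ± 0.07) and CDKN1A, p21, from 45.2 and 49.9 to 72 and 69.5 TPM (log2 0.56 ± 0.13, a call lost without wild type 79, N352S 81 or N352S 82), while MDM2 was not called (log2 -0.12 ± 0.08, limma adjusted p = 0.32).

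Some lysosomal and lipid genes rose. Of 33 lysosome and autophagy genes, 9 rose and none fell (median log2 0.07). CTSB, cathepsin B, rose from 149.5 and 156 to 210.5 and 204 TPM (log2 0.44 ± 0.04) and the cholesterol carrier NPC2 from 60.8 and 64.4 to 103 and 93.2 TPM (log2 0.64 ± 0.07). GRN, progranulin, rose by less (log2 0.30 ± 0.07, a call lost without wild type 80 or N352S 81). Of 24 cholesterol genes, 5 rose and 3 fell (median log2 0.13; left out in turn, 1, 2, 1 and 1 fell, and 9 rose with median-of-ratios scaling). MVK, mevalonate kinase, rose from 31.1 and 31.5 to 59.4 and 60.4 TPM (log2 0.92 ± 0.07) and FDFT1, squalene synthase, from 155 and 159 to 227 and 225 TPM (log2 0.52 ± 0.07), while SQLE fell (log2 -0.30 ± 0.07, a call lost without wild type 79, N352S 81 or N352S 82) and HMGCS1 (log2 0.15 ± 0.09) was not called. Of 15 fatty acid genes, 5 rose and none fell (median log2 0.14; left out in turn, 3, 2, 3 and 2 rose, and 3 rose without siControl 2, siTDP-43 1 or siTDP-43 3, without the siRNA libraries or with no filter). SREBF1, a regulator of lipid synthesis, rose from 142 and 142 to 231 and 201 TPM (log2 0.60 ± 0.07).

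In energy and redox metabolism, glycolysis genes were divided. Of 20 tested, 4 rose and 4 fell (median log2 0.03). HK1 rose from 77.9 and 74.5 to 113 and 109 TPM (log2 0.54 ± 0.06), the lactate transporter SLC16A3 fell from 6.65 and 6.85 to 3.36 and 3.04 TPM (log2 -0.88 ± 0.14), and PGK1 (log2 0.14 ± 0.06) and LDHA (log2 -0.19 ± 0.08) were not called. HIF1A, the oxygen-sensing factor, fell from 201 and 185 to 139 and 129 TPM (log2 -0.52 ± 0.08), and its target VEGFA was not called (log2 -0.11 ± 0.07). Among 26 NRF2 and glutathione genes, 5 rose and 5 fell (median log2 0.02; left out in turn, 3, 4, 5 and 5 rose and 1, 2, 5 and 1 fell, and 8 rose with median-of-ratios scaling, 3 fell without siTDP-43 1, without the siRNA libraries or with no filter). GPX1, glutathione peroxidase, rose from 176 and 173 to 272 and 283 TPM (log2 0.67 ± 0.04), and NQO1 fell from 27.3 and 32.9 to 16.1 and 13.7 TPM (log2 -0.96 ± 0.13). Of 13 mitochondrially encoded genes, none rose and 2 fell (median log2 -0.14, and 6 fell without siControl 3). These were MT-ATP8 (log2 -0.38 ± 0.06, a call lost with quantile normalization) and MT-CYB (log2 -0.35 ± 0.07, a call lost without wild type 79 or N352S 81 and with no filter). Of 40 nuclear-encoded respiratory chain genes, 8 rose and 1 fell (median log2 0.07; left out in turn, 0, 3, 2 and 1 rose, and 5 rose without siControl 2, 4 rose without siTDP-43 1, siTDP-43 2 or siTDP-43 3, 2 rose without the siRNA libraries, 3 rose with no filter). MT-CO1 was not called (log2 0.06 ± 0.07, limma adjusted p = 0.58).

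Of 81 cytosolic ribosomal protein genes, 8 rose and none fell (median log2 0.06; left out in turn, 3, 7, 5 and 4 rose, and 14 rose without siControl 3, 4 rose without the siRNA libraries, 5 rose with no filter, 3 fell with quantile normalization). RPL22L1, the paralogue of RPL22, stood apart from the rest, at 33.2 and 35.8 TPM in wild-type and 212 and 225 TPM in N352S libraries (log2 2.63 ± 0.12, limma adjusted p = 2e-06), and at 58.3, 57.2 and 75.5 TPM in siControl. RPL22 itself lies on distal 1p. RPS7 of chromosome 2p rose from 1988 and 2069 to 2626 and 2726 TPM (log2 0.40 ± 0.06).

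Among genes of nuclear transport and RNA handling more fell than rose, as over all tested genes outside distal 1p (11.2% lower and 8.63% higher). That general lean depended on scaling, with 56.6% of calls lower in the main fit and 46.8% with median-of-ratios scaling. Whether the lists below differed from this background was not tested. Of 50 nuclear pore and transport receptor genes, none rose and 15 fell (median log2 -0.14; left out in turn, 7, 7, 13 and 8 fell, and 7 fell without the siRNA libraries). KPNB1, importin beta, stood at 405 and 393 against 243 and 258 TPM (log2 -0.67 ± 0.05, limma adjusted p = 2.9e-05), and IPO5 at 146 and 137 against 121 and 115 TPM (log2 -0.26 ± 0.05). Of 32 hnRNP genes, relatives of TDP-43, 3 rose and 9 fell (median log2 -0.10; left out in turn, 4, 4, 3 and 3 fell, and 5 fell without the siRNA libraries, 4 fell with no filter). HNRNPR fell (log2 -0.26 ± 0.04). Of 39 splicing factors, 4 rose and 7 fell (median log2 -0.09; left out in turn, 3, 4, 7 and 2 fell, and 2 rose without the siRNA libraries or with a filter of 5 TPM, 2 fell without the siRNA libraries). MBNL2, a muscleblind splicing regulator, rose from 21 and 19.5 to 46.2 and 38.4 TPM (log2 1.02 ± 0.08), and the neuronal Hu protein ELAVL3 fell from 146 and 143 to 104 and 96 TPM (log2 -0.53 ± 0.08). Of 467 tested ZNF genes, 10 rose and 68 fell (median log2 -0.13; left out in turn, 7, 6, 10 and 9 rose and 25, 32, 53 and 35 fell, and 16 rose with median-of-ratios scaling or with quantile normalization, 6 rose without the siRNA libraries, 21 fell without the siRNA libraries). ZNF804A (3.49 and 3.1 to 0.64 and 0.54 TPM) and ZNF229 (3.75 and 3.72 to 0.82 and 0.7 TPM) fell, and ZNF423 rose from 42.3 and 39.4 to 66.9 and 64.7 TPM (log2 0.68 ± 0.06). In the DNA methylation and Polycomb list (31 tested), 3 rose and 6 fell (median log2 -0.06; left out in turn, 1, 1, 2 and 1 rose and 1, 3, 5 and 1 fell, and 1 rose with the replicate block, 2 fell without the siRNA libraries). JARID2 rose from 14.6 and 14.5 to 22.2 and 20.4 TPM (log2 0.52 ± 0.06), and CBX2 fell (log2 -0.31 ± 0.05).

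Genes known for cryptic exons under TDP-43 loss moved in both directions in N352S. Of 28 tested, 4 rose and 6 fell (median log2 -0.02). With knockdown, none of these rose and 14 fell (median log2 -0.26). UNC13A, a vesicle priming factor, fell from 36.1 and 32.8 to 23.2 and 23.9 TPM (log2 -0.53 ± 0.08), as ELAVL3 did, whereas the glycolytic enzyme PFKP rose from 58 and 60.3 to 89.3 and 88 TPM (log2 0.58 ± 0.10). PFKP fell with knockdown from 70.1, 87.4 and 90.3 to 28.2, 30.1 and 29 TPM, and its effects differed (limma adjusted p = 1.8e-05). Gene-level TPM do not show whether a cryptic exon was used. Of 36 other ALS and frontotemporal dementia genes, 4 rose and 5 fell (median log2 -0.08; left out in turn, 2, 2, 1 and 4 rose and 2, 2, 4 and 3 fell, and 2 fell without the siRNA libraries). OPTN, an autophagy receptor, rose from 29.4 and 30.7 to 43.8 and 45.4 TPM (log2 0.56 ± 0.07), and VCP, a segregase, fell (log2 -0.24 ± 0.05, a call lost without wild type 79).

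Developmental regulators changed at single genes. Of 20 Notch and proneural genes, 5 rose and 4 fell (median log2 -0.06, and 2 fell with a filter of 5 TPM). The inhibitors of differentiation ID1 (26.3 and 26.7 to 79.4 and 84.5 TPM, log2 1.59 ± 0.10) and ID2 (55.5 and 64.8 to 176 and 143 TPM, log2 1.39 ± 0.12) rose with NEUROG2 (60.5 and 60.0 to 118 and 130.4 TPM, log2 1.03 ± 0.06), and the Notch target HEY1 fell from 23.6 and 25.5 to 13 and 13.2 TPM (log2 -0.85 ± 0.07). NEUROG2 fell with knockdown (log2 -1.20) and the effects differed (limma adjusted p = 5.5e-07). Of 28 Wnt genes, 5 rose and 4 fell (median log2 -0.03; left out in turn, 2, 3, 3 and 2 rose, and 2 rose without the siRNA libraries, 2 fell without the siRNA libraries or with a filter of 5 TPM). The secreted antagonist SFRP1 fell from 23.2 and 24.6 to 6.15 and 6.08 TPM (log2 -1.81 ± 0.10), and another, DKK2, rose from 3.62 and 4.14 to 14.3 and 12.5 TPM (log2 1.56 ± 0.14). Of 23 BMP and TGF-beta genes, 4 rose and 7 fell (median log2 -0.10; left out in turn, 2, 3, 3 and 3 rose, and 2 rose with a filter of 5 TPM), with the receptor BMPR1B falling from 24.6 and 21.9 to 14.5 and 12 TPM (log2 -0.77 ± 0.09). Of 14 HOX genes, 6 rose and 1 fell (median log2 0.31). HOXC10 fell from 12.8 and 11.8 to 3.3 and 3.1 TPM (log2 -1.66 ± 0.11), while HOXD8 (16 and 16.3 to 34.6 and 32.9 TPM, log2 1.02 ± 0.07), HOXD10 (log2 0.74 ± 0.08) and HOXD11 (log2 1.06 ± 0.17) rose. Of 25 imprinted genes, 5 rose and 7 fell (median log2 -0.01; left out in turn, 3, 5, 4 and 5 fell). NNAT, neuronatin, rose from 149 and 149 to 450.4 and 454 TPM (log2 1.60 ± 0.06) and DLK1, a Notch-related ligand, fell from 2407 and 2383 to 1829 and 1981 TPM (log2 -0.33 ± 0.05).

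**Figure D5:**
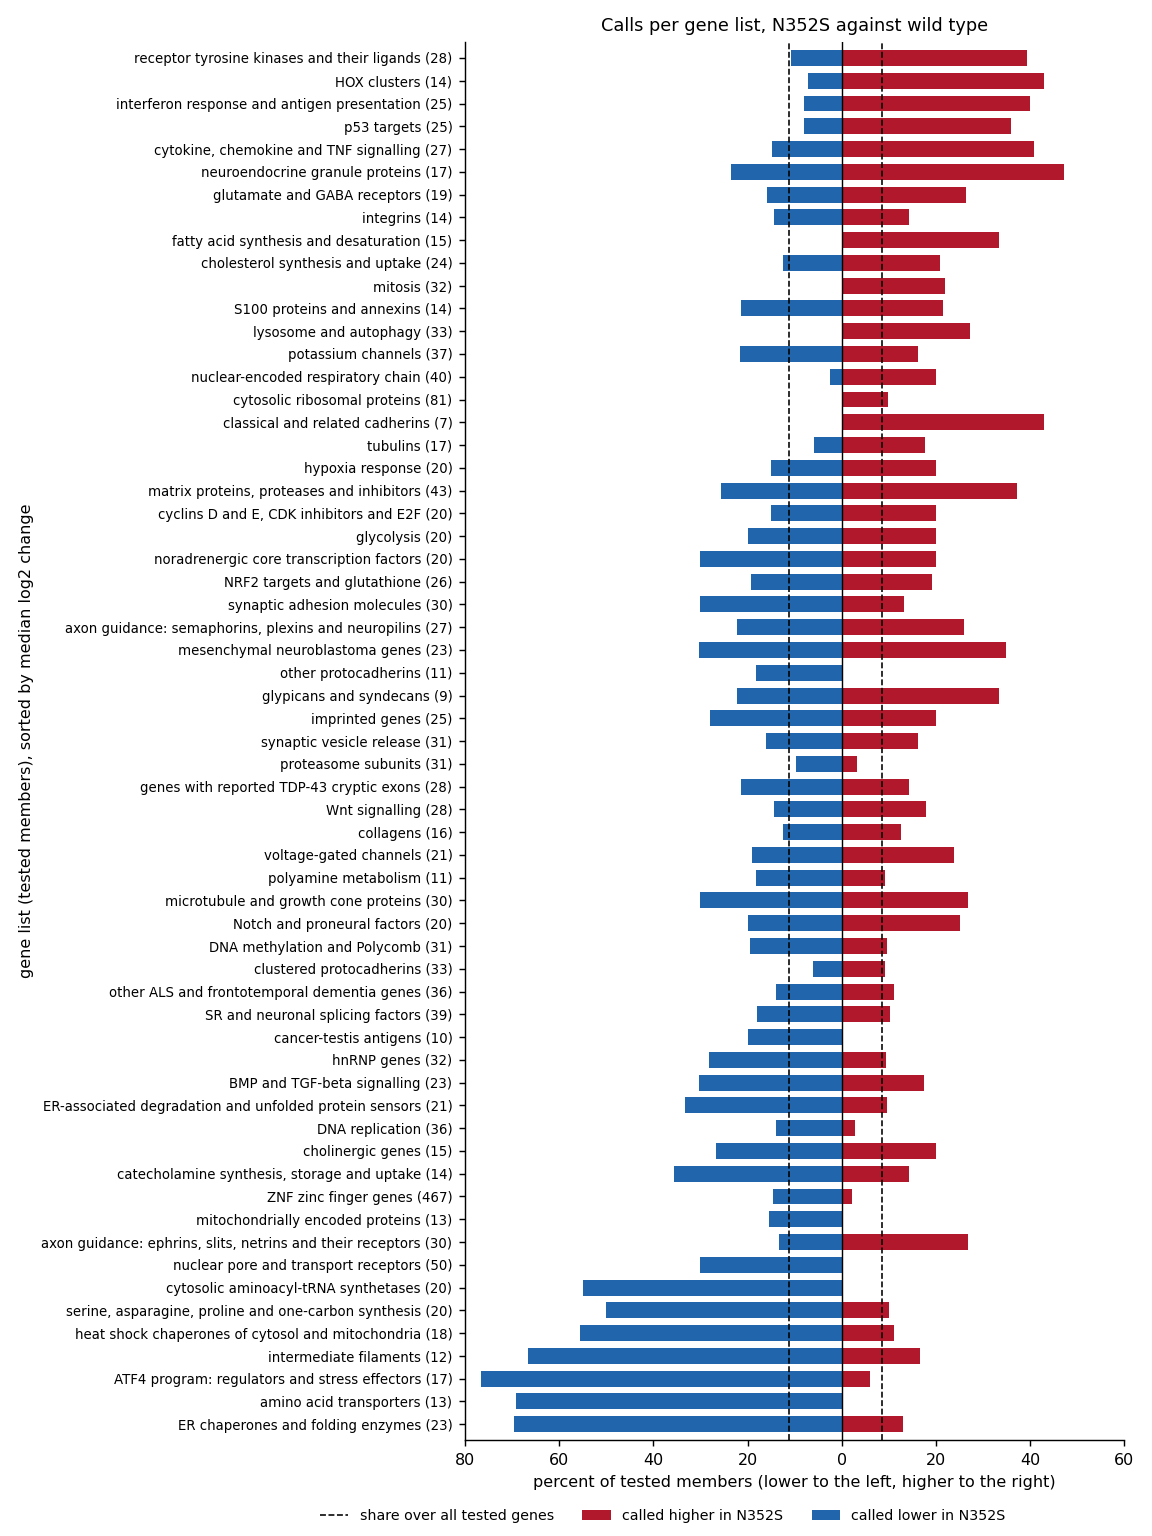
Percent of tested members of each of 61 gene lists called higher (red, to the right) or lower (blue, to the left) in N352S, with the number tested in brackets. Dashed lines mark the background of 8.63% higher and 11.2% lower. ER chaperones, amino acid transporters and the ATF4 program have the longest bars to the left.

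Other protein-coding genes with the largest moves in TPM outside distal 1p included 2 ribosomal protein genes, RPLP0 (2796 and 2884 to 3154 and 3140.3 TPM, log2 0.15 ± 0.04, a call lost without wild type 79, N352S 81, N352S 82 or the siRNA libraries and with no filter or no variance trend) and RPL17 (1405 and 1508 to 1707 and 1684 TPM, log2 0.22 ± 0.04, a call lost without the siRNA libraries). ARHGAP36, an activator of Hedgehog signalling on the X chromosome, rose from 405 and 400.2 to 836 and 852 TPM (log2 1.07 ± 0.03) and fell with knockdown (log2 -0.96, limma adjusted p = 6.6e-08 for the difference). TFPI2, a protease inhibitor of the matrix, rose from 271 and 295 to 579 and 589.5 TPM (log2 1.04 ± 0.15). RGS4, which dampens G protein signalling, fell from 711 and 742 to 566 and 507 TPM (log2 -0.44 ± 0.06).

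Across the 17151 genes outside distal 1p the log2 effects of N352S and of knockdown, which share no control libraries, had a Pearson correlation of 0.001 and a Spearman correlation of 0 (across genes, which are not independent). Of the 3408 genes called in N352S, 1384 (40.6%) were also called with knockdown, which is 31.8% of the 4348 knockdown calls. Over all 17151 genes, 19.9% were called in N352S, and 5.88% rose and 19.5% fell with knockdown. Of the 1384, 164 rose in both, 570 fell in both, 471 rose in N352S and fell with knockdown, and 179 fell in N352S and rose with knockdown. The effects themselves differed in 3684 genes (21.5%, limma adjusted p under 0.05). STMN2 fell in both, by more with knockdown (log2 -2.89), and the difference passed the test (limma adjusted p = 9.6e-06).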

How the data were processed

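RNA of 10 SH-SY5Y libraries was measured by sequencing (Trizol extraction and an Illumina TruSeq RNA kit, per the labels' protocols). The deposited values are TPM per gene. Per the submitters' processing notes the authors used STAR, RSEM and the build hg38, whose versions are not given in those notes. TPM keep no depth, so depth is unknown and no counting interval is given.

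Positions and types came from GENCODE 29 and promoters from RefSeq (GRCh38.p14). The fit was made on log2(TPM + 1), thus with a pseudocount of 1, in limma 3.58.1 under R 4.3.3, with the variance trended on the mean, 4 group means over 10 libraries (6 residual degrees of freedom) and a minimum mean of 1 TPM over the 4 genotype libraries. A gene was called where its p-value, adjusted by Benjamini and Hochberg's method, was under 0.05. Named genes are TARDBP, STMN2, the near on-off genes (up to 15 a direction), fixed key members and up to 4 called members of each list with the smallest p, and the 10 largest moves in TPM a direction. Outside this rule, HEBP2, GYG2, MIR4435-2HG, DCN, PDGFRA, RPL22, SULF2, CCDC80, BCL11A and the genes from TARDBP to FBXO44 along the chromosome were chosen after their values were seen. Some genes that the rule names are not reported here. Members and lists were chosen with earlier results of these data known. The fit was tested on simulated data with known changes. Alternatives covered pseudocount, filter, scaling, fit, threshold, a replicate block and removal of each library. Figures were drawn with matplotlib 3.10.9.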

Additional observations from a re-analysis of the deposited data

How the results depend on the processing

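The counts of called genes over all 17303 tested genes (1481 higher and 2042 lower) and outside distal 1p (1480 and 1928) moved by over 1.5 times in the settings given here. An adjusted p under 0.01 gave 773 higher and 970 lower, or 868 lower outside distal 1p. A change of at least 1.5-fold gave 560 and 548, or 559 and 440 outside. The 4 genotype libraries alone gave 1105 lower, or 1003 outside. With each library removed in turn, the counts ran from 857 to 1609 higher and from 1007 to 2194 lower, and outside distal 1p from 857 to 1608 higher and from 901 to 2081 lower, lowest without wild type 79 and highest without siControl 3. The lost near on-off genes (21) numbered 12 at 20-fold, 34 at 5-fold, 10 at 10 TPM, 36 at 2 TPM and 26 to 37 with a library removed. The gained genes (8) numbered 24 at 5-fold, 5 at 10 TPM, 17 at 2 TPM, 5 with the lower genotype under 1 TPM and 10 to 32 with a library removed. Removal of a genotype library leaves 1 library of that genotype. This lowers the power of the fit, and the near on-off rule then rests on that 1 library. Any further cause was not tested.

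Genotype libraries share no replicate numbers, so the replicate block could use the siRNA numbers only. It gave 1394 higher and 1852 lower genes. Of 303 named genes 273 were called, 129 of them in every setting in which they were tested, and 0 reversed. The share of lower genes among calls outside distal 1p was 56.6%, 46.8% with median-of-ratios scaling and 51.3% with quantile normalization. Taking distal 1p to the end of MTOR, an alternative chosen after seeing the data, left 20 lost and 7 gained genes. With 2 libraries a genotype and unknown depth, a gene that was not called is not shown to be equal between the genotypes.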

Other observations

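The protein-coding genes were also read by position, in 411 windows of 30 neighbouring tested genes outside distal 1p. The window medians ran from -0.29 to 0.23 in log2 units. The 3 windows with the highest medians lay on chromosome 2p, followed by 1 on chromosome 1q (230.9 to 236.2 Mb, median 0.19, 7 higher and 2 lower), and another 1q window (205.5 to 211.8 Mb, median 0.18) ranked among the next. On chromosome 2, among the first 180 tested protein-coding genes, up to 44.4 Mb (6 windows, with medians from 0.14 to 0.23), 65 were higher and 5 lower in N352S (median log2 0.18), against 84 and 79 of the other 682 genes of the chromosome (median -0.03). With TDP-43 knockdown the same 2 sets had medians of -0.11 and -0.10. RPS7 and ID2, described above, lie in the first stretch, and so does PXDN. PXDN, which encodes the matrix peroxidase peroxidasin, stood at 107 and 112 TPM in wild-type and 191 and 177 TPM in N352S libraries (log2 0.74 ± 0.07). The lowest window lay on chromosome 9 from 96.8 to 100.6 Mb, with 12 of 30 genes lower and 1 higher (median -0.29). The stretches were chosen after their values were seen and were given no test.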
